A study of Mus musculus with 71 samples.

Results

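The cluster of miR-183, miR-96 and miR-182 gives 3 main mature microRNAs, mmu-miR-183-5p, mmu-miR-96-5p and mmu-miR-182-5p (the prefix for mouse is left out from here on), which were picked by name from the 1927 mature miRNAs listed in the count tables. Small RNA was sequenced from right cerebellum, left striatum and left cortex of male DYT1KI and wild-type (WT) mice. DYT1KI mice are a knock-in model of the movement disorder DYT-TOR1A dystonia. In each genotype mice were either injured, by a crush of the right sciatic nerve that lasted 1 minute at 12 weeks of age, or naive, and tissue was labelled as taken 12 weeks post injury. The 12 groups (DYT1KI injured, DYT1KI naive, WT injured and WT naive mice in each of 3 tissues) held 6 libraries each, except cerebellum of WT injured mice with 5. The 71 libraries came from 24 numbered animals. Libraries are also numbered from 1 to 6 within their group (biol rep), and the same number stands for a different animal in each group of a tissue. The cerebellum was extracted with another column kit (mini) than striatum and cortex (micro) and lies on the other side of the body, so kit and side cannot be told apart from tissue in comparisons with the cerebellum.

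The miRNAs of this cluster are cut from hairpins that lie close together and are made from 1 long primary transcript. They are best known from sensory cells: photoreceptors, hair cells of the inner ear, olfactory neurons and sensory neurons of the dorsal root ganglia. A miRNA pairs with messenger RNAs mainly through its seed, bases 2 to 8 counted from the 5′ end, and represses them.

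The hairpins lie on the minus strand of mouse chromosome 6. In the order of transcription they are Mir183 (chr6:30169668-30169737), Mir96 (chr6:30169446-30169551) and Mir182 (chr6:30165918-30165992), in RefSeq's annotation of GRCm38.p6. The span from first to last hairpin is 3820 bases, with 116 bases between Mir183 and Mir96 and 3453 bases between Mir96 and Mir182. In GENCODE M21 the span overlaps no gene but these hairpins. The nearest protein-coding genes are Nrf1, on the plus strand and 12460 bases away, and Ube2h, 41552 bases away, and the long non-coding RNA Rncr4 starts 3156 bases upstream on the opposite strand. The mature sequences, from RefSeq with the seed in capitals, are shown because the seed decides which messenger RNAs a member can pair with.
miR-183-5p: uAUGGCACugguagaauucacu
miR-96-5p: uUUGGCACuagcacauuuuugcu
miR-182-5p: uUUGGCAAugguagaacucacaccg
Taking miR-96-5p as the reference and counting from its 5′ end, the seed of miR-183-5p differs by U2A and the seed of miR-182-5p by C8A. Each of these pairs shares 6 of the 7 seed bases, while miR-183-5p and miR-182-5p share 5. Past the seed the order turns round, and miR-183-5p and miR-182-5p have the same base at 18 of 22 positions over their whole length, against 13 of 22 for miR-96-5p and miR-183-5p. Among 1738 mature mouse miRNAs in RefSeq's table, 1 other carries a member's full seed, namely that of miR-96-5p.
miR-1271-5p: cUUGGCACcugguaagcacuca
This miRNA, from chromosome 13 (chr13:54578152-54578173, plus strand), had 4 counts in a single cortex library (WT injured, biol rep 5) and 0 in the other libraries.

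Library totals were 8199033 to 12582875 counts for cerebellum, 6161668 to 10219295 for striatum and 5182284 to 10064827 for cortex. Levels are given in CPM, counts scaled to a common library total with TMM over all 71 libraries. A level of 3 counts corresponded to between 0.253 and 0.51 CPM, and below it a member was not detectable as far as counting error goes. Tests used edgeR's quasi-likelihood test, with Benjamini-Hochberg adjusted p-values over every miRNA in a fit and a threshold of 0.05.

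All 3 members were high in cerebellum and low in both forebrain tissues. miR-182-5p, the most abundant member, spanned 78.3 to 282 CPM over the 23 cerebellum libraries (median 146.1), 3.46 to 23.6 CPM over those of striatum (median 6.02) and 1.99 to 25.999 CPM over those of cortex (median 6.04). miR-183-5p spanned 18.8 to 105 CPM in cerebellum (median 52.8), 0.266 to 7.18 CPM in striatum (median 2.12) and 1.01 to 10.6 CPM in cortex (median 2.51). The lowest cerebellum library lay above the highest forebrain library for both of these miRNAs. miR-96-5p, the member in which seed mutations cause progressive hearing loss in mice and humans, ranged from 3.28 to 14.9 CPM in cerebellum (median 8.26) and from 0 to 2.44 CPM in cortex (median 0.463). In striatum it had 0 to 9 counts, with 9 of 24 libraries at 0. The cerebellum libraries were above all others for miR-96-5p too. The share of all miRNAs whose libraries separated the tissues in this way is not given here, so the separation is a description of the members only.

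Averaged over the 4 conditions, the log2 difference of cerebellum minus cortex was 4.38 for miR-182-5p, with an SE of 0.19 (adjusted p = 3.49e-31). For miR-183-5p it was 4.14 ± 0.21 (edgeR, adjusted p = 5.86e-28). Against striatum, cerebellum was higher by 4.54 ± 0.19 for miR-182-5p and 4.45 ± 0.21 for miR-183-5p (edgeR, adjusted p = 4.56e-32 and 2.16e-29). For miR-96-5p the difference was 3.73 ± 0.26 over cortex and 5.45 ± 0.31 over striatum. No test is given for these values, as miR-96-5p entered the fit only through its cerebellum counts. Such differences were common: of 629 miRNAs tested over the 3 tissues 35.3% were called higher in cerebellum than in cortex and 36.6% higher in cerebellum than in striatum. In bulk tissue, fewer cells of a type and less RNA per cell cannot be told apart. The separation held in each of the 4 conditions, where the lowest cerebellum library exceeded the highest cortex library for every member. For this too the share over all miRNAs is not given. For miR-182-5p the ratio of mean levels between cerebellum and cortex was 31.2 in DYT1KI injured, 17.2 in DYT1KI naive, 15.3 in WT injured and 27.3 in WT naive mice.

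**Figure D1:**
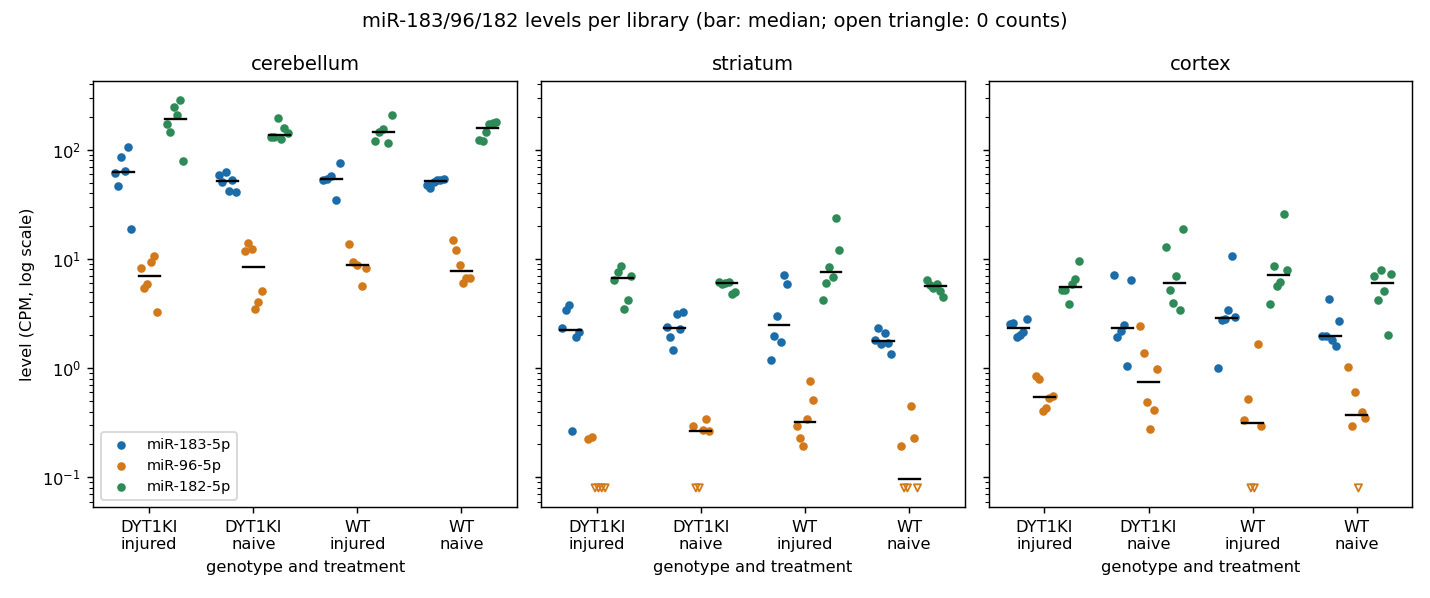
Levels of the 3 members in every library (CPM, log scale) by tissue, genotype and treatment; points are libraries, bars are medians and open triangles are libraries with 0 counts. Cerebellum lies above both forebrain tissues for each member, for example at 78.3 to 282 CPM of miR-182-5p.

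For the 2 abundant members no difference between striatum and cortex passed the test, and striatum minus cortex was -0.15 ± 0.17 for miR-182-5p (95% interval -0.50 to 0.19, adjusted p = 0.459) and -0.31 ± 0.20 for miR-183-5p (-0.71 to 0.09, adjusted p = 0.188). For miR-96-5p the level was lower in striatum, with a difference from cortex of -1.72 ± 0.36 (edgeR, adjusted p = 2.85e-05), where 32.4% of all miRNAs tested were called lower in striatum. That call rests on 50 counts summed over the striatum libraries and 137 over the cortex libraries, and miR-96-5p entered this fit through its cerebellum counts, since its counts did not pass the low-count filter in either forebrain tissue alone. By condition the ratio of mean levels, striatum over cortex, was 0.127 in DYT1KI injured (4 against 31 counts) and 0.195 in DYT1KI naive mice (12 against 59). It was 0.827 in WT injured (25 against 23) and 0.325 in WT naive mice (9 against 24).

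**Figure D2:**
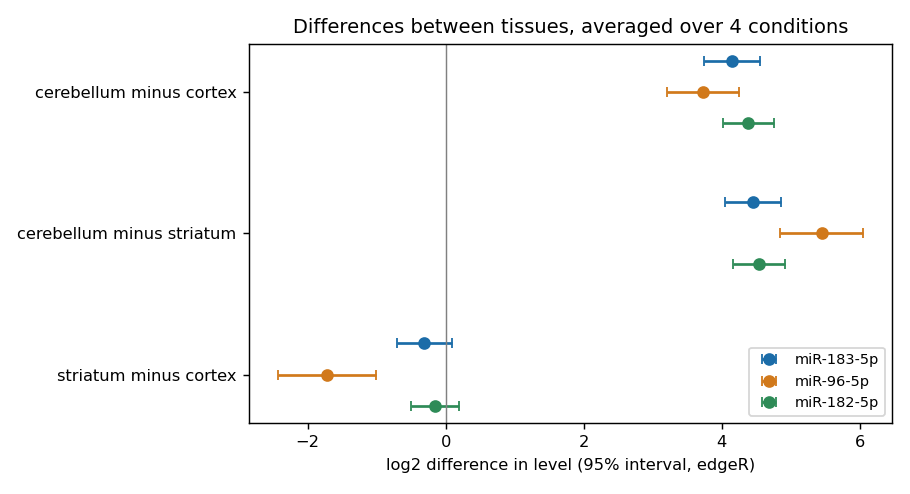
Log2 differences in level between tissues with 95% intervals for each member, averaged over 4 conditions. The cerebellum differences are between 3.73 and 5.45, whereas the striatum minus cortex intervals of miR-183-5p and miR-182-5p include 0. Both of these ends are values of miR-96-5p, whose cerebellum intervals do not stand for a test, as it entered the fit only through its cerebellum counts.

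By mean share the members stood in the same order in each tissue. Of the cluster's counts, miR-182-5p made up 71.5% ± 3.49 (SD, n = 23) in cerebellum, 72.5% ± 6.66 (n = 24) in striatum and 66.6% ± 6.30 (n = 24) in cortex. miR-183-5p made up 24.5% ± 2.25, 25.5% ± 6.12 and 27.5% ± 5.34 in the same order of tissues, and miR-96-5p 3.97% ± 1.85, 2.004% ± 1.81 and 5.90% ± 3.91. These shares compare counts between miRNAs of similar length, and capture in a library can still differ between sequences. By mean level over the tissue, miR-182-5p stood at rank 117 of the listed miRNAs in cerebellum, 320 in striatum and 325 in cortex.

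The ratio of miR-182-5p to miR-183-5p was compared between tissues of the same animal, as it does not depend on a library's scaling. Its log2 value was 1.55 ± 0.20 in cerebellum and 1.25 ± 0.38 in cortex (SD, 23 animals), a difference of 0.30 ± 0.40 that was positive in 18 of 23 animals (permutation of signs, two-sided, p = 0.00119, adjusted over 3 tissue pairs 0.00357). Cerebellum and striatum differed by 0.03 ± 0.56 (permutation, adjusted p = 0.782), and striatum and cortex by 0.25 ± 0.66 (permutation, adjusted p = 0.114).

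The other arms of the hairpins were rarer. miR-183-3p was detected in 23 of 23 cerebellum libraries with at least 9 counts in each and took 11.6% ± 2.49 (SD) of its hairpin's counts. It had at most 10 counts in any forebrain library, and a count above 0 in 6 of 24 cortex and 8 of 24 striatum libraries. In WT naive cortex that count was 2, below the level of 3 counts. It passed the low-count filter only through its cerebellum counts, so no test of its tissue difference is given. miR-96-3p had 0 to 15 counts in cerebellum, or 8.50% ± 6.23 of its hairpin's counts. miR-182-3p had 0 counts in all 71 libraries, beside 29202 counts of miR-182-5p in cerebellum, which allows a share of up to 0.0103% of that hairpin's counts. The 3p arms, shown to set them beside these counts, read as follows.
miR-183-3p: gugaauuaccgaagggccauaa
miR-96-3p: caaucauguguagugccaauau
miR-182-3p: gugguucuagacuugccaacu

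In cerebellum the levels of the 4 conditions overlapped. miR-182-5p had a lowest, median and highest level of 78.3, 189 and 282 CPM in DYT1KI injured mice and of 126, 136 and 196 CPM in DYT1KI naive mice. WT injured mice had 120.0, 146.1, 155, 115 and 206 CPM from biol rep 1 to 5, and WT naive mice a lowest, median and highest of 120.3, 157.4 and 178 CPM. DYT1KI injured mice held both the lowest and the highest library, so all other groups fall within their range. For miR-183-5p the lowest, median and highest levels were 18.8, 62.8 and 105 CPM in DYT1KI injured and 41.2, 51.7 and 61.9 CPM in DYT1KI naive mice. WT injured mice had 52.6, 53.3, 57.6, 34.4 and 75.2 CPM from biol rep 1 to 5, and WT naive mice 44.6, 51.7 and 54.2 CPM. The groups of miR-183-5p overlapped throughout, with the widest spread again in DYT1KI injured mice. miR-96-5p had 3.28, 7.01 and 10.7 CPM in DYT1KI injured and 3.44, 8.38 and 13.97 CPM in DYT1KI naive mice. WT injured mice had 13.8, 9.30, 8.71, 5.70 and 8.26 CPM from biol rep 1 to 5, and WT naive mice 6.07, 7.81 and 14.9 CPM. These groups overlapped as well.

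No injury or genotype difference of a member passed the test in cerebellum. Averaged over genotypes, injured minus naive mice was 0.18 ± 0.16 for miR-182-5p (adjusted p = 0.813) and 0.24 ± 0.18 for miR-183-5p (adjusted p = 0.79). For miR-96-5p it was -0.09 ± 0.25 (adjusted p = 0.952), and 0% of 555 miRNAs were called (41 at an unadjusted p under 0.05). In DYT1KI mice alone the injury difference was 0.36 ± 0.22 for miR-182-5p (95% interval -0.07 to 0.79, adjusted p = 0.543) and 0.32 ± 0.25 for miR-183-5p (-0.17 to 0.80, adjusted p = 0.602), again with 0% called (41 at an unadjusted p under 0.05). DESeq2 and limma called 0 for both. Averaged over treatments, DYT1KI minus WT came to 0.15 ± 0.16 for miR-182-5p (adjusted p = 0.532), to 0.13 ± 0.18 for miR-183-5p (adjusted p = 0.655) and to -0.24 ± 0.25 for miR-96-5p (adjusted p = 0.539). There 5.05% of 555 miRNAs were called (3.6% higher and 1.44% lower; 67 miRNAs by DESeq2, 23 by limma and 89 with the replicate block, against 28), and 0 of the 3 members were among them.

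miR-96-5p in cerebellum differed between libraries of low and high biol rep number. In DYT1KI naive mice it had 11.7 to 13.97 CPM in biol rep 1 to 3, against 3.44 to 5.06 CPM in biol rep 4 to 6. In WT naive mice it had 8.88 to 14.9 CPM, against 6.07 to 6.74 CPM. In WT injured mice it had 8.71 to 13.8 CPM, against 5.70 to 8.26 CPM in the 2 libraries of biol rep 4 and 5. In these 3 groups the ranges thus lay apart, whereas in DYT1KI injured mice they overlapped (5.45 to 8.19 CPM, against 3.28 to 10.7 CPM). Over the 4 groups biol rep 1 to 3 was higher than 4 to 6 by 0.65 ± 0.22 for miR-96-5p (edgeR, adjusted p = 0.0254), where 36.8% of 555 miRNAs were called in either direction (19.8% higher and 16.9% lower). The estimate for miR-183-5p was 0.01 ± 0.18 (adjusted p = 0.983), and that for miR-182-5p was -0.19 ± 0.15 (adjusted p = 0.354). In WT naive mice the ranges of these members lay apart too, but with biol rep 1 to 3 lower. miR-182-5p had 120.3 to 143.8 CPM, against 171.0 to 178.1 CPM, and miR-183-5p 44.6 to 50.8 CPM, against 52.5 to 54.2 CPM. In the other groups their ranges overlapped. The share of all miRNAs with ranges apart is not given here. Whether miR-96-5p differed in this from the other members was not tested. What the numbers stand for beyond separate animals is not given in the labels. Within biol rep 1 to 3 alone, miR-96-5p was lower in DYT1KI injured than in DYT1KI naive mice, with a difference of -0.99 ± 0.30 (edgeR, adjusted p = 0.0462; 67 of 557 miRNAs were called), whereas within biol rep 4 to 6 the difference was 0.87 ± 0.36 (adjusted p = 0.943) and over all libraries -0.23 ± 0.35 (adjusted p = 0.816).

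**Figure D3:**
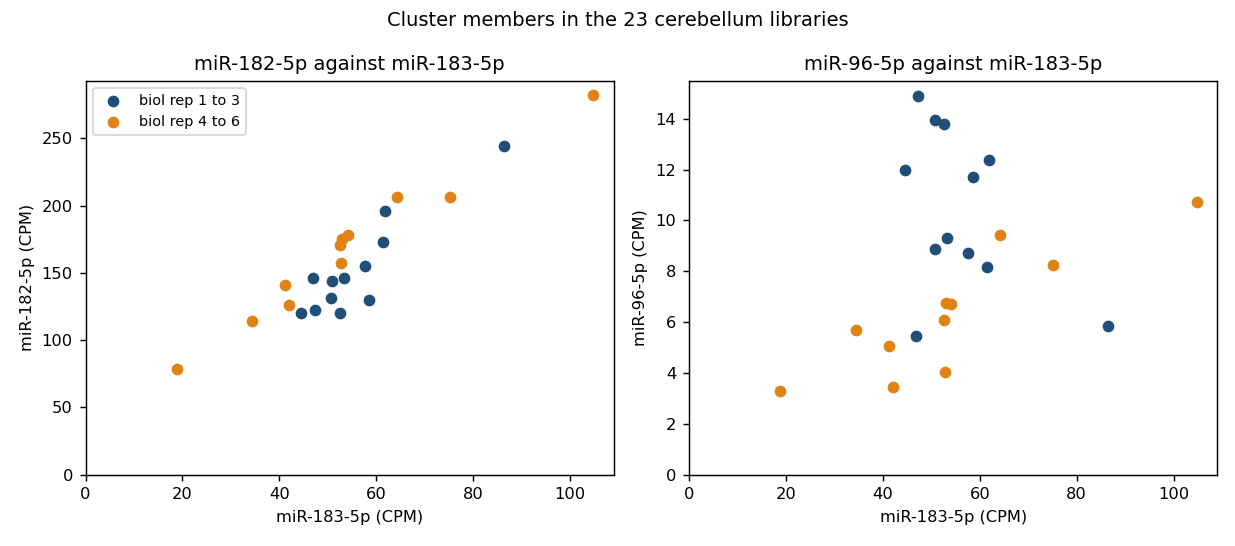
Levels (CPM) of miR-182-5p and miR-96-5p against miR-183-5p in the 23 cerebellum libraries, coloured by biol rep range. miR-182-5p follows miR-183-5p from 78.3 to 282 CPM, whereas most libraries of biol rep 1 to 3 lie higher in miR-96-5p than those of biol rep 4 to 6.

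Libraries with more miR-183-5p also had more miR-182-5p. With group means removed, the log2 levels of this pair correlated at r = 0.919 in cerebellum (n = 23), 0.815 in striatum and 0.872 in cortex (n = 24 each). Spearman's rho was 0.849, 0.783 and 0.806, and each permutation p over 9 pairs and tissues, adjusted, was at or below 0.00087. Without the 2 libraries farthest from the median of miR-183-5p, r was 0.807 in cerebellum, 0.792 in striatum and 0.812 in cortex. The values of r were lower for miR-96-5p: with miR-183-5p it gave r = 0.499 and rho = 0.403 in cerebellum (permutation, adjusted p = 0.0227 for r and 0.102 for rho), and r was 0.291 without the 2 farthest libraries. Without them this pair missed the threshold, and the drop in r was not tested. By biol rep, r in cerebellum was -0.0856 within 1 to 3 (n = 12) and 0.722 within 4 to 6 (n = 11), a difference that was not tested. With miR-182-5p, miR-96-5p gave r = 0.25 and rho = 0.086 in cerebellum (permutation, adjusted p = 0.27 for r and 0.688 for rho). In the forebrain, where miR-96-5p had few counts, r ran from 0.362 to 0.538 for its 4 pairs. Of these, 2 had an adjusted permutation p under 0.05 for r, and both missed it without the 2 farthest libraries.

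In 16 comparisons of conditions within tissues no ratio between members passed an exact two-sided permutation test. Of the ratios of miR-96-5p to miR-183-5p in cerebellum, the one of DYT1KI injured against WT injured mice differed most, with log2 values of -3.07 ± 0.48 (SD, n = 6) in DYT1KI injured and -2.58 ± 0.45 (n = 5) in WT injured mice (exact permutation p = 0.123, adjusted 0.932).

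In striatum the cluster was highest in some injured WT mice. miR-182-5p had a lowest, median and highest level of 3.46, 6.72 and 8.54 CPM in DYT1KI injured and 4.76, 5.96 and 6.18 CPM in DYT1KI naive mice. It had 4.23, 7.57 and 23.6 CPM in WT injured, against 4.50, 5.63 and 6.42 CPM in WT naive mice. The WT injured group reaches above the others through biol rep 5 (23.6 CPM) and 6 (12.1 CPM), and its remaining 4 libraries overlap the naive mice. miR-183-5p had 0.266, 2.25 and 3.76 CPM in DYT1KI injured and 1.47, 2.32 and 3.25 CPM in DYT1KI naive mice. It had 1.18, 2.48 and 7.18 CPM in WT injured, against 1.34, 1.76 and 2.33 CPM in WT naive mice. The same 2 libraries, at 7.18 and 5.87 CPM, were its highest. miR-96-5p summed to 4 counts in DYT1KI injured, 12 in DYT1KI naive, 25 in WT injured and 9 in WT naive mice, too few for the test within striatum.

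Injured minus naive WT mice was 0.87 ± 0.29 for miR-182-5p (unadjusted p = 0.00554, adjusted p = 0.794, edgeR) and 0.93 ± 0.41 for miR-183-5p (adjusted p = 0.81) in striatum, with 0% of 547 miRNAs called and 29 at an unadjusted p under 0.05. In DYT1KI mice the injury difference was 0.06 ± 0.29 for miR-182-5p and -0.16 ± 0.41 for miR-183-5p (adjusted p = 0.936 and 0.888), with 0% called (46 at an unadjusted p under 0.05). Between injured mice of the 2 genotypes, DYT1KI minus WT was -0.73 ± 0.28 for miR-182-5p (adjusted p = 0.33) and -0.63 ± 0.40 for miR-183-5p (adjusted p = 0.529), with 0% called (72 at an unadjusted p under 0.05). Whether the injury effect differed between genotypes was tested as an interaction, which was -0.81 ± 0.41 for miR-182-5p and -1.08 ± 0.58 for miR-183-5p (edgeR, adjusted p = 0.872 for both), with 0% called (16 at an unadjusted p under 0.05). DESeq2 and limma called 0 miRNAs in these 4 comparisons.

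In cortex single libraries again set the upper end. miR-182-5p had a lowest, median and highest level of 3.85, 5.57 and 9.51 CPM in DYT1KI injured and 3.42, 6.07 and 18.9 CPM in DYT1KI naive mice. It had 3.86, 7.08 and 25.999 CPM in WT injured, against 1.99, 5.98 and 7.93 CPM in WT naive mice. The 4 groups overlapped around medians of 5.57 to 7.08 CPM. miR-183-5p had 1.93, 2.33 and 2.80 CPM in DYT1KI injured and 1.04, 2.32 and 7.15 CPM in DYT1KI naive mice. It had 1.01, 2.87 and 10.6 CPM in WT injured, against 1.59, 1.97 and 4.32 CPM in WT naive mice. The 3 highest libraries of the cluster were biol rep 5 of WT injured mice and biol rep 1 and 6 of DYT1KI naive mice. miR-96-5p had 0 to 26 counts in cortex and was at 0 in 3 of 24 libraries. Its lowest, median and highest levels were 0.406, 0.545 and 0.849 CPM in DYT1KI injured and 0.274, 0.741 and 2.44 CPM in DYT1KI naive cortex. They were 0, 0.316 and 1.67 CPM in WT injured, against 0, 0.374 and 1.03 CPM in WT naive cortex, and most of these values lie near the level of 3 counts.

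Injured minus naive mice was 0.75 ± 0.45 for miR-182-5p and 0.68 ± 0.45 for miR-183-5p in WT cortex (edgeR, adjusted p = 0.246 and 0.305), with 0% of 530 miRNAs called (168 at an unadjusted p under 0.05). That background depended on the model: DESeq2 called 60 and limma 0, and edgeR called 164 with biol rep as a replicate block, 172 with a term for the biol rep range and 134 with only these 2 groups in the fit. In DYT1KI cortex the same difference was -0.47 ± 0.44 for miR-182-5p and -0.57 ± 0.45 for miR-183-5p (adjusted p = 0.516 and 0.416), with 0% called (131 at an unadjusted p under 0.05). DESeq2 called 31 and limma 0 there, and edgeR called 119 with the replicate block and 0 with only these 2 groups. No member was among the calls in any of these fits. The interaction was -1.22 ± 0.63 for miR-182-5p and -1.25 ± 0.64 for miR-183-5p (edgeR, adjusted p = 0.84 for both), with 0% called (20 at an unadjusted p under 0.05, and 0 called by DESeq2 and by limma). Averaged over genotypes, 30.9% of 530 miRNAs were called between injured and naive cortex (10.9% higher and 20% lower in injured cortex), and neither of the 2 members tested was among them.

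The forebrain libraries with most of the cluster were also those with most of the miR-200 family (miR-200a-3p, miR-200b-3p, miR-200c-3p, miR-141-3p and miR-429-3p), known from epithelia and from the olfactory system. All 5 were detected in cortex and in striatum, and their summed level ran from 7.38 to 95.8 CPM in cortex (median 15.4) and from 8.27 to 76.2 CPM in striatum (median 14.3). By group it ran from 8.06 to 30.3 CPM in DYT1KI injured, 10.98 to 69.2 CPM in DYT1KI naive, 7.38 to 95.8 CPM in WT injured and 13.3 to 26.2 CPM in WT naive cortex. In striatum the ranges were 9.61 to 18.4, 8.27 to 16.9, 10.9 to 76.2 and 9.43 to 16.7 CPM for these groups in turn. The 3 cortex libraries with the highest sums, 95.8, 69.2 and 62.7 CPM, were the 3 named above as highest in the cluster. In striatum the libraries with 76.2 and 41.9 CPM were WT injured biol rep 5 and 6. Biol rep 5 of WT injured mice is the same animal in both tissues, which had the highest level of the cluster and of the miR-200 family in each.

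With group means removed, the mean log2 level of miR-183-5p and miR-182-5p correlated with the summed miR-200 family at r = 0.891 and rho = 0.724 in cortex (n = 24). In striatum r was 0.795 and rho 0.793 (n = 24). These values are given as a description, since they join 2 members in 1 score. Without the 2 libraries farthest from the median of the list, r was 0.805 in cortex and 0.663 in striatum. Without all libraries above 2 times the tissue's median (3 in cortex, 2 in striatum), r was 0.737 in cortex and 0.663 in striatum. In cerebellum, where the sum ran from 9.46 to 68.3 CPM, r was 0.112 and rho -0.0158 (n = 23). For the other 21 pairs of list and tissue (choroid plexus, Htr2c-hosted, pineal, blood, cerebellar, striatal and cortical miRNAs) r lay between -0.566 for the blood list and 0.447 for the pineal list, both in cerebellum. Their rho lay between -0.448 for the blood list in cerebellum and 0.548 for the cerebellar list in cortex.

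**Figure D4:**
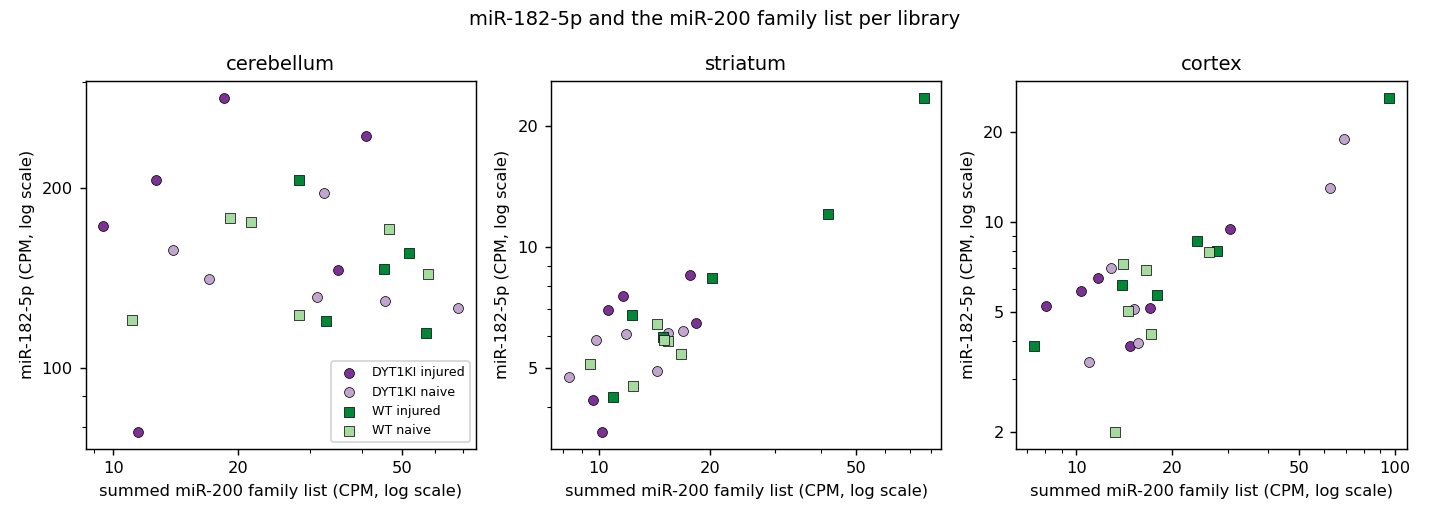
Level of miR-182-5p against the summed level of the 5 miR-200 family miRNAs in every library (CPM, both axes log scale), by tissue; symbols are groups. In striatum and cortex the points rise together up to 23.6 and 25.999 CPM, whereas in cerebellum they do not (r = 0.112 with group means removed).

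Without the 5 forebrain libraries above 2 times the median, an alternative chosen after seeing the data, most of the forebrain differences were nearer to 0 or of the other sign. These libraries were also the highest in the cluster within their tissues. Leaving them out thus moves the differences of their groups by itself, whatever the level of the miR-200 family. In striatum injured minus naive WT mice was then 0.19 ± 0.21 for miR-182-5p and 0.10 ± 0.39 for miR-183-5p (edgeR, adjusted p = 0.997 for both). DYT1KI minus WT in injured striatum was -0.04 ± 0.21 for miR-182-5p and 0.20 ± 0.38 for miR-183-5p. In cortex injured minus naive mice was 0.26 ± 0.31 for miR-182-5p and 0.17 ± 0.30 for miR-183-5p in WT, and 0.45 ± 0.33 and 0.43 ± 0.33 in DYT1KI. The cortex interaction was 0.19 ± 0.45 for miR-182-5p and 0.26 ± 0.45 for miR-183-5p (adjusted p = 0.957 for both). The striatum interaction was -0.12 ± 0.28 for miR-182-5p and -0.24 ± 0.51 for miR-183-5p. The part of tissue rich in the miR-200 family in these differences was not tested, and this refit cannot show it.

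**Figure D5:**
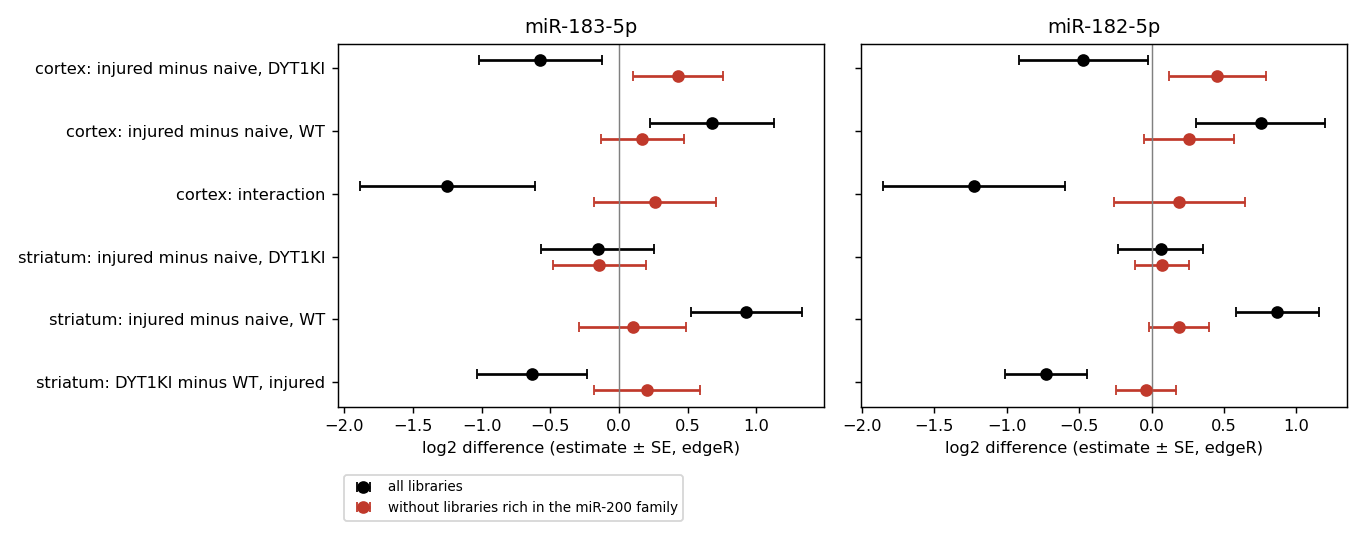
Log2 differences of miR-183-5p and miR-182-5p in cortex and striatum (estimate ± SE) with all libraries (black) and without those above 2 times the median of the miR-200 family list (red). The black estimates reach -1.25 and 0.93, and the red ones lie between -0.14 and 0.45. The libraries left out were also the highest in the cluster.

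In the authors' deposited tables, whose names call them DESeq2 comparisons, 0 members passed in any of the 12 comparisons, and miR-96-5p has no adjusted p in 2 of them. Over all miRNAs with an adjusted p, 48 of 586 passed between WT injured and WT naive cortex. Between DYT1KI injured and DYT1KI naive cortex 27 of 498 passed, and in each other comparison 0 passed. The smallest adjusted p of a member, in the authors' deposited table of cortex, was 0.225 for miR-182-5p between WT injured and WT naive mice (log2 fold change 0.54 ± 0.31). The authors' deposited table of striatum gives 0.38 ± 0.13 for miR-182-5p between WT injured and WT naive mice (adjusted p = 0.755). For miR-96-5p it gives an SE of 0.07 at a mean of 1.93 counts. How these fold changes were estimated is not described here, so their size and SE cannot be set directly against the edgeR values.

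The effects of injury and genotype on the members were also compared between tissues, in the fit of all 71 libraries. None of the 3 members passed for any of the 6 differences of effect (0.159% or fewer of 629 miRNAs called between tissues for injury, and 0.795% or fewer for genotype). The lowest adjusted p was 0.263, for the genotype effect on miR-96-5p in cerebellum minus cortex (-1.02 ± 0.53).

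Over the 12 group means the mean log2 level of the cluster was most like that of miR-10a-5p (r = 0.994), miR-130a-3p (r = 0.993), miR-10a-3p (r = 0.993), miR-183-3p (r = 0.992) and miR-615-3p (r = 0.992), among 626 other miRNAs. The 12 means fall into cerebellum and forebrain, so these values describe the step between tissues. miR-10a and miR-615 are encoded within Hox gene clusters, which pattern the hindbrain. Of the 6 hindbrain and Hox-cluster miRNAs listed beside the cluster, 5 entered the fit. Their median difference of cerebellum minus cortex was 6.93, against -0.06 over all 629 miRNAs. With those that had 3 or fewer cortex counts set at a floor of 3 counts over the tissue, this median was 7.30. Against striatum the median was 7.08 (7.45 with that floor), against -0.05 over all miRNAs. Both medians without the floor are the value of miR-196a-5p, which had 3 counts over the cortex and 2 over the striatum libraries. miR-615-3p had 0 counts in both tissues. These 2 miRNAs entered the fit only through their cerebellum counts, so no count of calls is given for the list. miR-204-5p and miR-211-5p are known in the mouse retina to change with light, as this cluster does. Of them only miR-204-5p was tested, and it was higher in cerebellum by 1.47 ± 0.20 over cortex and by 3.11 ± 0.21 over striatum (edgeR, adjusted p = 8.7e-10 and 1.62e-21).

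Among the 23 cerebellum libraries, with group means removed, the miRNAs most like the cluster were miR-1251-5p (r = 0.805), miR-10b-5p (r = 0.799), miR-592-5p (r = 0.769), miR-380-3p (r = 0.768) and miR-3475-3p (r = 0.764), of 622 compared. Without the 2 libraries farthest from the median of the cluster, r was between 0.467 and 0.718 for these. The lowest library in the cluster was DYT1KI injured biol rep 6, with 18.8 CPM of miR-183-5p and 78.3 CPM of miR-182-5p. It also had the lowest miR-10a-5p (49.0 CPM) and miR-10b-5p (46.9 CPM). The next lowest was WT injured biol rep 4, with 34.4 CPM of miR-183-5p and 115 CPM of miR-182-5p beside 111 CPM of miR-10a-5p and 92.7 CPM of miR-10b-5p. In the other 21 libraries miR-10a-5p ran from 158.3 to 720.1 CPM and miR-10b-5p from 107 to 252 CPM. The cerebellar list adds miR-206-3p to these, and its sum was mostly miR-206-3p. Median levels in cerebellum were 3089 CPM for miR-206-3p, 378 CPM for miR-10a-5p and 163 CPM for miR-10b-5p. The sum was 5033 CPM in DYT1KI injured biol rep 6 (rank 5 of 23) and 4061 CPM in WT injured biol rep 4 (rank 8). It thus did not follow the low miR-10a-5p and miR-10b-5p of these libraries. Over the cerebellum libraries that sum gave r = 0.107 with the mean of miR-183-5p and miR-182-5p, group means removed. The part of tissue rich in miR-10a-5p and miR-10b-5p in the levels of the cluster was not tested. WT injured biol rep 4 of the cerebellum is the animal that had the highest level of the cluster in striatum and in cortex.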

How the data were processed

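Small RNA of 71 libraries was counted per mature miRNA. Per the labels' protocols, 500 ng of total RNA went into QIAseq miRNA UDI libraries. R 4.1.0 and featureCounts 1.6.4 are named in the submitters' processing notes without a role; the aligner, the genome build and the handling of unique molecular identifiers were not given in the sources used here. In all, 12 tables were deposited, with raw count columns per the file headers. The authors' normalized columns are a signal, the counts divided by 1 size factor per library. The authors' log2 fold changes with SE, their statistic (a score) and their p-value columns stand in the deposited tables, which are named as DESeq2 comparisons. No value column was left unmapped.

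Counts were fitted in R 4.3.3 with edgeR 4.0.16 (TMM, filterByExpr with minimum count 10 and minimum total 15, robust quasi-likelihood), with the 4 groups of a tissue together (555 miRNAs in cerebellum, 547 in striatum, 530 in cortex) and all 12 groups together for tissues (629). Log2 CPM for correlations used a prior count of 2, and ratios added 0.5 to each count. Alternatives were upper-quartile scaling, DESeq2 1.42.0, limma 3.58.1 (voom), no filter, only the groups compared, a term for the biol rep range, either range alone, blocks for replicate or animal, and each library or animal left out. The scripts were tested on simulated data. Members, lists and named miRNAs (the members, their other arms, seed sharers, the 5 most alike by correlation) were chosen with earlier results of these data known. The correlations with marker lists were added after seeing the data.

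Animals pair the tissues by their number in the labels: the median correlation of deviations from group means within an animal was 0.17 between cerebellum and cortex, 0.012 between cerebellum and striatum and -0.019 between striatum and cortex. PCR reads are not independent molecules, so floors cover counting error only. Replicates were taken as separate animals.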

Additional observations from a re-analysis of the deposited data

Results flagged for a closer look

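In the striatum of DYT1KI injured mice, biol rep 4 stood far below the other libraries of its group for miR-183-5p, at -1.02 on the log2 CPM scale against 1.10 to 1.99 in the other 5. Its gap to the nearest library took 0.704 of the group's range, above the critical value of 0.625 for 6 libraries. The value rests on 3 counts. This was 1 flag among 28 groups looked at, and chance flags about 1 group in 20.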

How the results depend on the processing

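The higher levels in cerebellum kept their direction for all 3 members, and passed the threshold for miR-182-5p and miR-183-5p, under each alternative tried. These were a replicate block for the animal (miR-182-5p 4.45 over cortex), upper-quartile scaling, DESeq2, no filter and each animal left out. The lower miR-96-5p in striatum than in cortex, averaged over the 4 conditions, kept its direction and passed under them as well. These fits rest on much the same few forebrain counts, and by condition the ratio ran from 0.127 in DYT1KI injured to 0.827 in WT injured mice. No call of a member within a tissue changed, except that 1 member, miR-96-5p in DYT1KI injured against naive cerebellum, passed within biol rep 1 to 3. Signs of differences that did not pass turned as follows; the causes were not tested. Within biol rep 1 to 3 these were miR-183-5p in injured minus naive WT cortex (-0.20) and DYT1KI striatum (0.67), and DYT1KI minus WT in injured striatum (0.66 for miR-183-5p, 0.32 for miR-182-5p), and the striatum interaction (0.62 for miR-183-5p, 0.23 for miR-182-5p). Within biol rep 4 to 6 these were miR-182-5p in injured minus naive DYT1KI striatum (-0.21), miR-96-5p in injured minus naive cerebellum (0.50 averaged, 0.87 in DYT1KI), and DYT1KI minus WT cerebellum (-0.11 for miR-183-5p, -0.12 for miR-182-5p). With limma voom miR-182-5p in injured minus naive DYT1KI striatum was -0.013. Without libraries rich in the miR-200 family, 92 miRNAs were called between injured and naive cortex averaged over genotypes, against 164 with all libraries, and 0 against 28 between DYT1KI and WT cerebellum (also 0 with no filter). Signs then turned in injured minus naive DYT1KI cortex (0.43 for miR-183-5p, 0.45 for miR-182-5p), its interaction (0.26 and 0.19) and DYT1KI minus WT in injured striatum (0.20 for miR-183-5p). With 1 library left out, the averaged cortex count ran from 25 (without DYT1KI injured biol rep 4) to 220 (without DYT1KI naive biol rep 4), and the cerebellum count from 0 (without WT injured biol rep 2, DYT1KI naive 4 or 5, or DYT1KI injured 2 or 5) to 70 (without DYT1KI naive biol rep 2). Without libraries rich in Htr2c-hosted miRNAs 0 were called in averaged cortex but 88 of 533 between injured and naive WT cortex, against 0 with all libraries, and the injury difference in DYT1KI cortex was 0.26 for miR-183-5p and 0.051 for miR-182-5p. Leaving out 1 library at a time, injured minus naive DYT1KI cortex ran from -0.63 to 0.033 for miR-182-5p, injured minus naive DYT1KI striatum from -0.056 to 0.18 for miR-182-5p and -0.36 to 0.10 for miR-183-5p, and injured minus naive cerebellum from -0.21 to 0.0044 for miR-96-5p.

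The log2 ratio of miR-182-5p to miR-183-5p ran from -0.017 to 0.12 for cerebellum minus striatum and from 0.18 to 0.30 for striatum minus cortex with 1 animal left out, and striatum minus cortex passed without animal 140 (permutation, adjusted p = 0.0411). The pair of miR-183-5p and miR-182-5p missed it within biol rep 1 to 3, at r = 0.852 in cortex and 0.848 in striatum. miR-96-5p with miR-182-5p in cortex had r = 0.292 without the 2 farthest libraries, 0.707 within biol rep 1 to 3 and 0.606 within 4 to 6, each missing the threshold. miR-96-5p with miR-183-5p in striatum had r = 0.39 without the 2 farthest libraries and 0.37 within biol rep 1 to 3. miR-96-5p with miR-182-5p in striatum passed within biol rep 4 to 6 (r = 0.543). In cerebellum miR-96-5p with miR-183-5p had r = 0.291 without the 2 farthest libraries, -0.0856 within biol rep 1 to 3 and 0.722 within 4 to 6, and with miR-182-5p -0.0652, -0.256 and 0.712. Same biol rep numbers do not mark the same animal; that replicate block changed no call of a member (for example 0.314 for miR-182-5p in DYT1KI injured against naive cerebellum), but over all miRNAs it called 164 against 0 in injured minus naive WT cortex, 119 against 0 in DYT1KI cortex and 240 against 164 averaged; every library correlated best with its own number in no tissue (9 of 23 in cerebellum, 6 of 24 in cortex, 0 of 24 in striatum). Counts limit miR-96-5p in the forebrain.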
